A study of Mus musculus with 20 samples.

Results

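Mitochondrial β-oxidation of fatty acids was followed at 10 genes that encode its enzymes: Acadvl, Acadl, Acadm, Hadha, Hadhb, Hadh, Acaa2, Decr1, Eci1 and Etfdh. The genes were taken as a fixed list of 10 among 49997 genes of the RefSeq table for GRCm38.p6, the assembly that mm10 names. Every consensus interval of a histone mark whose middle lay in the gene body or within 10 kb of it was a member, which gave 53 of 65776 H3K27ac intervals, 89 of 103014 H3K4me1 intervals and 61 of 46568 H3K9ac intervals. Intervals between Hadha and Hadhb, which lie head to head, belong to both genes and were counted once.

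Chromatin immunoprecipitation sequencing (ChIP-seq) had been done on frozen livers of 9-week-old male C57BL/6 mice, all fasted for 24 h, in a study that asked how Ppara and fatty acid oxidation shape transcription in the liver. The 4 genotypes were wild type (WT), a knockout of Cpt2 in the liver (Cpt2 L-/-, here Cpt2 KO), a knockout of Ppara (Ppara -/-, here Ppara KO) and both deletions together (Cpt2 L-/- ; Ppara -/-, here DKO). H3K27ac and H3K4me1 were each measured in 2 livers per genotype, and H3K9ac in 1 WT and 1 Cpt2 KO liver. No fed animals enter, so each difference is one within the fasted state, and the Cre driver of the liver knockout is not given in the labels. WT and Cpt2 KO livers are called Ppara-intact, Ppara KO and DKO livers Ppara-null, and likewise for Cpt2.

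Long-chain fatty acids enter mitochondria as carnitine esters, and Cpt2, on the inner membrane, returns them to coenzyme A. Each turn of β-oxidation then uses an acyl-CoA dehydrogenase, a hydratase, a hydroxyacyl-CoA dehydrogenase and a thiolase, and unsaturated chains also need Eci1 and Decr1. Ppara encodes PPARα, a nuclear receptor for fatty acids that pairs with RXR on direct repeats of AGGTCA and is known for driving oxidation genes in the fasted liver. H3K27ac marks active promoters and enhancers, H3K9ac active promoters, and H3K4me1 enhancers and the flanks of promoters.

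The sequences in front of 4 gene starts are shown because the marks behaved differently at them: H3K27ac at the starts of Acadvl and Eci1 was lower in Ppara-null livers, at the start shared by Hadha and Hadhb it was not, and at Hadh the livers varied. Each run is the 250 bases before the start on the gene's strand, 5′ to 3′, from RefSeq on GRCm38.p6. Capitals mark AGGTCA (a receptor half-site), GGGCGG (a GC box) and CCAAT, on either strand.
Acadvl, chr11:70015429-70015678, minus strand: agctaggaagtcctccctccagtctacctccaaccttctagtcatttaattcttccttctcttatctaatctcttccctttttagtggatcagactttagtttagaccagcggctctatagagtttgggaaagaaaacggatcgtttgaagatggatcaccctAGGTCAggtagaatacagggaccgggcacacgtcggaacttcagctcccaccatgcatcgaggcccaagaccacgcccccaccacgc
Eci1, chr17:24426433-24426682, plus strand: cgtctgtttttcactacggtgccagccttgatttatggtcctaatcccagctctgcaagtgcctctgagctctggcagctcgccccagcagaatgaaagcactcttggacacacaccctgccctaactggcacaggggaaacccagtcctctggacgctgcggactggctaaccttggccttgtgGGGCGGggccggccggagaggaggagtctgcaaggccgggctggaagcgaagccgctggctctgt
Hadhb, chr5:30155003-30155252, plus strand: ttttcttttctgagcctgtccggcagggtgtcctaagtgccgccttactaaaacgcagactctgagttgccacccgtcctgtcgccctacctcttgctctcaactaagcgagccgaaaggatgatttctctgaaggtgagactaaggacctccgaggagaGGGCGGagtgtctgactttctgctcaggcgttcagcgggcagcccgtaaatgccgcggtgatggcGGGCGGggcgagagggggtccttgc
Hadh, chr3:131272102-131272351, minus strand: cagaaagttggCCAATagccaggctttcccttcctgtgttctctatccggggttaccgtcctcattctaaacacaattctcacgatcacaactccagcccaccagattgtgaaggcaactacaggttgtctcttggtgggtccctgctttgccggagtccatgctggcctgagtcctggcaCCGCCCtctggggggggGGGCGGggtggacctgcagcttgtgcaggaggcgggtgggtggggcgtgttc
RefSeq promoters were at hand for 8 of the 10 genes; none was for Acaa2 and Decr1. AGGTCA stood before the starts of 2 of the 8, Acadm and Acadvl, against 14.0% of 32851 promoters of the same length, and in Acadvl it spanned bases 87 to 82 before the start. The full direct repeat (AGGNCA, any base, AGGNCA), which may contain an AGGTCA, was in none of the 8 and in 0.338% of all promoters. GGGCGG was in 5 of the 8 (32.7% of all), CCAAT in 2 (33.8%), and TATAAA (12.4%), TGACGTCA (1.55%) and CACGTG (6.02%) in none. Only 272 bases separate the starts of Hadha and Hadhb, so their promoter windows share 228 bases.

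A fold is the fold enrichment over input that the authors' peak caller gave a peak, and the value of an interval in a library is the highest fold among its peaks there. An interval without a peak in a library has no call and no fold. At the targeted genes, of 26 H3K27ac intervals at Ppara 1 was called only in the 4 Ppara-intact and 1 only in the 4 Ppara-null livers, and of 5 at Cpt2 1 was called only in the 4 Cpt2-intact livers; the labels do not give the deleted exons, so this checks no label. H3K27ac libraries held 44454 to 48929 peaks and H3K4me1 libraries 61189 to 72151, and read depth is unknown. The same numbers stand in the peak names of both marks, which ties both marks to the same animals only if they are animal numbers. They ran from 9548 to 9589 in Ppara-intact and from 6833 to 6848 in Ppara-null libraries, so they split by the state of Ppara. Anything that goes with these 2 runs of numbers cannot be told apart from the state of Ppara. Peak names of the H3K27ac library Ppara KO replicate 2 carry another build word, yet 83.9% of its peaks met a peak of Ppara KO replicate 1, within the 79.0% to 85.9% of the other H3K27ac libraries. All 8 hepatocyte marker genes had an H3K27ac interval called in all 8 libraries, as did all 6 liver endothelial genes, 2 of 6 Kupffer cell genes and 1 of 6 genes each for stellate cells, cholangiocytes and lymphocytes. The summed H3K27ac folds of the 6 Kupffer cell genes were 13.1 to 23.8 in Cpt2-intact and 34.2 to 72.2 in Cpt2-null livers, and Cd5l, Adgre1 and Vsig4 were called in Cpt2-null livers only. The sums were also higher in Cpt2-null livers for stellate cell genes (33.0 to 45.8 against 14.2 to 25.1), lymphocyte genes (19.6 to 32.2 against 10.2 to 19.4) and endothelial genes (93.6 to 113 against 70.0 to 84.1). By Cpt2 the cholangiocyte sums (14.6 to 22.8 in null, 17.9 to 45.65 in intact livers) and hepatocyte sums (134 to 213 and 136 to 171) overlapped. Sums of 8 reference genes, Actb among them, were 152 to 177 in Cpt2-null and 110 to 154 in Cpt2-intact livers. All sums use folds as deposited, and before centring folds of all tested intervals were higher in Cpt2-null livers by a median of 0.25 (log2). By Ppara the Kupffer cell sums overlapped, at 13.1 to 48.6 in intact and 17.0 to 72.2 in null livers, as did the hepatocyte sums, at 134 to 164 and 152 to 213. The part of these markers in any result was not tested.

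Peaks of both replicated marks covered fewer bases at the 10 genes in Ppara-null livers. With 10 kb on either side of each gene, H3K27ac peaks spanned 52.7 and 54.6 kb in the WT livers and 62.1 and 66.9 kb in the Cpt2 KO livers. The same windows held 31.8 and 34.8 kb in the Ppara KO livers and 24.0 and 27.2 kb in the DKO livers. Thus every Ppara-null liver lay below every Ppara-intact liver, with a mean of 29.5 kb against 59.1 kb, or 49.8%. H3K4me1 peaks spanned 55.7 to 65.9 kb in the 4 Ppara-intact livers and 28.5 to 37.6 kb in the 4 Ppara-null livers, 55.7% on average. Over the whole genome the groups overlapped, with 42.1 to 47.8 Mb under H3K27ac peaks in Ppara-intact and 42.0 to 47.4 Mb in Ppara-null livers. H3K4me1 peaks covered 52.5 and 53.2 Mb in the WT and 41.4 and 53.5 Mb in the Cpt2 KO livers. They covered 53.3 and 42.7 Mb in the Ppara KO and 38.8 and 46.0 Mb in the DKO livers, so the H3K4me1 groups overlapped but most Ppara-null livers covered less. In tissue of many cells, a mark on fewer cells and less of the mark per cell cannot be told apart.

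Gene by gene, H3K27ac covered fewer bases in all 4 Ppara-null livers than in any Ppara-intact liver at 7 of the 10 genes (Acadvl, Acadl, Hadha, Hadhb, Hadh, Decr1 and Eci1), against 5.24% of 23838 genes with an H3K27ac peak in the same kind of window in any library. A gene that lacks a peak in some liver of each state cannot separate, yet it counts in these backgrounds. More bases in all Ppara-null livers were found at none of the 10, against 4.68%. For H3K4me1 the count of lower genes was 7 of 10 (Acadvl, Hadha, Hadhb, Hadh, Acaa2, Decr1 and Eci1) against 3.97% of 25438 genes, and Acadl alone was higher, against 3.69%. By the state of Cpt2 no gene of the 10 separated in this way for either mark, against 9.87% lower and 11.3% higher for H3K27ac and 2.06% and 1.39% for H3K4me1. The windows of Hadha and Hadhb overlap, so these 2 genes are not independent, and peaks over the starts of Acadm and Etfdh were not analysed here.

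**Figure D1:**
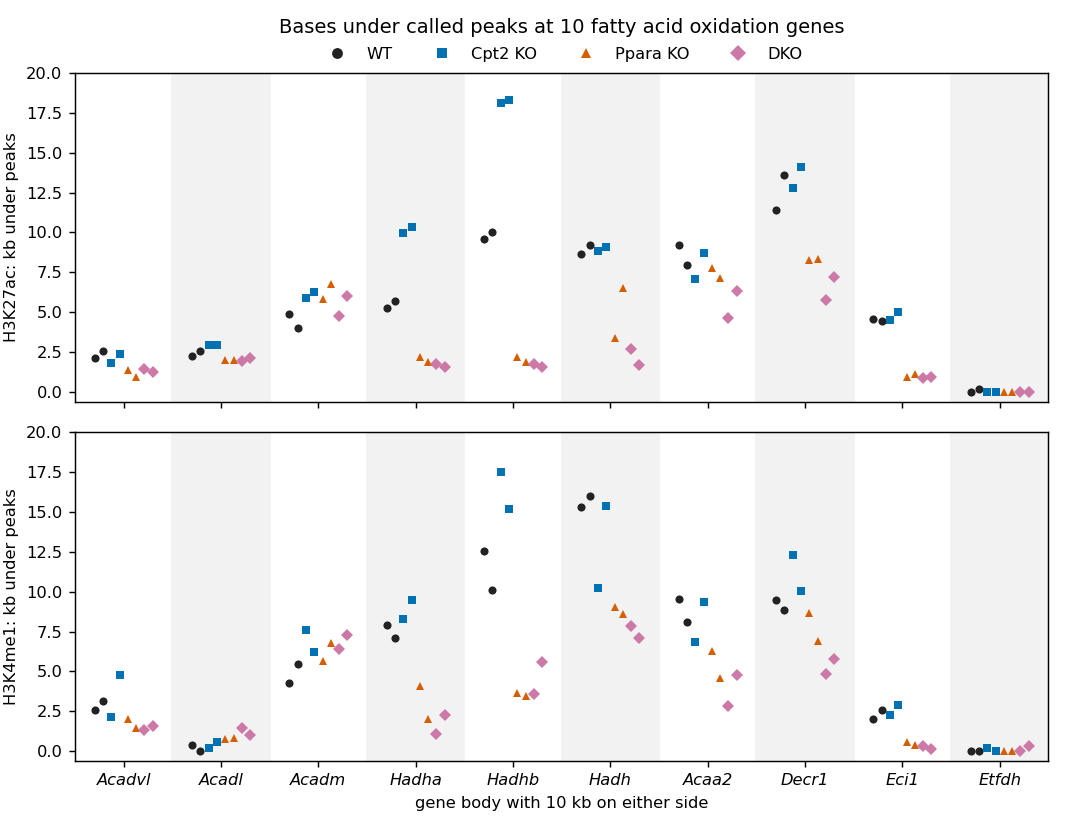
Bases under called peaks (kb, y axis) at each of the 10 genes (x axis, gene body with 10 kb on either side), H3K27ac above and H3K4me1 below, with 1 point per liver coloured by genotype. At Hadhb the 2 Cpt2 KO livers reached 18.1 and 18.3 kb of H3K27ac and the 4 Ppara-null livers 1.58 to 2.22 kb. Acadm and Etfdh, whose starts were not analysed here, did not separate by Ppara for either mark, and Acaa2 did not for H3K27ac.

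The folds were tested with limma across all intervals called in all 8 libraries, after centring each library on its median log2 fold. Of 18281 H3K27ac intervals tested, 13 belonged to the 10 genes. Between Ppara-null and Ppara-intact livers 3 of these fell (Acadvl, Eci1 and Decr1), against a background of 4.15% of all intervals, and 1 rose, inside Acadm, against 3.19% (7.34% in either direction). Without overlap between the Ppara groups, Acadvl, Eci1 and Decr1 were the 3 lower of the 13 (background 3.28%) and the Acadm interval the 1 higher (2.58%). The median log2 difference was -0.26 over the 13 and -0.01 over all intervals tested. The requirement of a call in all 8 libraries leaves out intervals without any peak in a genotype, and those are described by their calls.

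The acyl-CoA dehydrogenases, which open each turn of the cycle, differed from each other. Acadvl acts on very long chains. Its start (chromosome 11, gene body 70010183 to 70015428) lay in an H3K27ac interval at 70013937 to 70015529 with folds of 11.5 and 14.4 in the WT pair, 22.3 and 19.5 in the Cpt2 KO pair, 7.91 and 7.18 in the Ppara KO pair and 9.31 and 10.3 in the DKO pair. All 4 Ppara-null livers lay below all 4 Ppara-intact livers. Peaks reached over the start base itself in 6 livers, not in the Ppara KO pair. The log2 difference was -0.96 ± 0.16 (SE; adjusted p = 0.00436, limma), a ratio of 0.514, and it passed under all 15 alternative settings (-1.03 to -0.89). An H3K4me1 interval 2.1 kb inside Acadvl, at 70012858 to 70013795, had a call in every Ppara-intact liver, with folds from 5.26 to 7.17, and in no Ppara-null liver. The Acadvl interval with the highest mean H3K4me1 fold, at 70013872 to 70015010, was called in all 8 livers. Its folds were 4.79 to 7.92, and its Ppara groups overlapped.

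Acadl encodes the long-chain dehydrogenase (chromosome 1, 66830839 to 66863309), and its only H3K27ac interval covered the start, at 66861055 to 66864231. Folds were 15 and 23.4 in the WT pair, 27.9 and 26.6 in the Cpt2 KO pair, 13.1 and 16 in the Ppara KO pair and 19.3 and 23.8 in the DKO pair. The Ppara groups overlapped, and the log2 difference of -0.39 ± 0.14 (SE) did not pass (limma adjusted p = 0.118). The peak was shorter in Ppara-null livers, covering 1.96 to 2.15 kb against 2.27 to 2.98 kb. H3K4me1 went the other way here, with 0.747 to 1.47 kb under peaks in Ppara-null livers and 0 to 0.569 kb in Ppara-intact livers.

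Acadm encodes the medium-chain dehydrogenase (chromosome 3, 153922353 to 153944643) and had 1 H3K27ac interval inside the gene that rose without Ppara. The interval at 153929868 to 153930643, inside the gene and 14.4 kb from the start, had folds of 6.58 and 6.98 in the WT pair, 5.25 and 8.54 in the Cpt2 KO pair, 10.7 and 10.5 in the Ppara KO pair and 14.4 and 13.0 in the DKO pair. Every Ppara-null liver was above every Ppara-intact liver, and the log2 difference of 0.81 ± 0.21 (SE) passed at an adjusted p of 0.0344 (limma). This call rested on single libraries: leaving out any 1 library other than Cpt2 KO replicate 2 gave limma adjusted p values of 0.0543 to 0.126, and smallest peak width as covariate gave 0.0636. Its neighbour at 153931180 to 153933222 had folds of 5.20 and 5.25 in the WT pair, 8.46 and 8.58 in the Cpt2 KO pair, 6.75 and 9.26 in the Ppara KO pair and 9.99 and 16.9 in the DKO pair, and its Ppara groups overlapped (0.57 ± 0.20, SE; limma adjusted p = 0.0938). The next interval, at 153928575 to 153929720, was called in every genotype except WT: the Cpt2 KO pair had 6.89 and 7.49, the Ppara KO pair 9.49 and 10.0 and the DKO pair 10.1 and 15.4.

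Beyond the start, H3K27ac at 153946671 to 153947379, an interval 2382 bases outside the gene body, had a call in every Ppara-intact liver and in no Ppara-null liver. Its folds were 5.98 and 8.93 in WT and 11.7 and 10.8 in Cpt2 KO livers. The next interval outwards, at 153947458 to 153949049, had folds of 9.62 and 8.04 in WT and 15.1 and 14.7 in Cpt2 KO livers, and in the Ppara-null livers was called only in Ppara KO replicate 2, at 5.50, and DKO replicate 2, at 5.98. These 2 flank intervals did not enter the test. Another H3K27ac interval called in all 8 libraries, at 153910995 to 153914327 and 9692 bases from the gene, had folds of 15.4 to 23.3, with overlapping groups that differed by -0.03 ± 0.14 on the log2 scale (SE; limma adjusted p = 0.927).

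Hadha and Hadhb encode the α and β subunits of the mitochondrial trifunctional protein, which carries out the hydratase, dehydrogenase and thiolase steps on long chains (chromosome 5, 30119423 to 30154980 and 30155253 to 30184593). H3K27ac was called at their shared start in all 8 livers, while 3 intervals inside Hadhb were called in every Ppara-intact and no Ppara-null liver. The shared interval at 30151136 to 30156557 had H3K27ac folds of 15 and 16.6 in the WT pair, 22.8 and 20.9 in the Cpt2 KO pair, 15.8 and 18.3 in the Ppara KO pair and 21.6 and 24.9 in the DKO pair. The Ppara groups overlapped and differed by 0.07 ± 0.13 on the log2 scale (SE; limma adjusted p = 0.809). All Cpt2-null livers were above all Cpt2-intact livers here, as at 2 of the 13 intervals (the other lies beyond Acadvl) against 17.8% of all, and the difference by Cpt2 did not pass (limma adjusted p = 0.339). The Hadhb promoter printed above lies in this interval and is 58.8% G and C, against a median of 52.4% over all promoters.

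Inside Hadhb, the interval at 30163981 to 30167655, 10.6 kb from the start, had H3K27ac folds of 10.0 and 12.0 in WT and 20.1 and 23.2 in Cpt2 KO livers and no call in any Ppara-null liver. Its neighbour at 30167796 to 30171519 had folds of 10.3 and 10.1 in WT and 17.0 and 15.6 in Cpt2 KO livers, again with no call without Ppara. Another, at 30156733 to 30159413, just inside the gene, had folds of 5.27 and 5.97 in WT and 10.2 and 8.52 in Cpt2 KO livers and no call in Ppara-null livers. These folds are as deposited, and over all tested H3K27ac intervals the folds before centring were higher in Cpt2 KO than in WT livers by a median of 0.19 (log2). The bases under H3K27ac peaks at Hadhb were 9.61 and 10.0 kb in WT, 18.1 and 18.3 kb in Cpt2 KO, 2.22 and 1.91 kb in Ppara KO and 1.75 and 1.58 kb in DKO livers. Cpt2 KO livers thus had the widest acetylated domain at Hadhb among the 4 genotypes, whereas over the genome their H3K27ac peaks covered less (42.1 and 44.6 Mb) than those of WT livers (47.8 and 47.1 Mb). A further interval, at 30171712 to 30172765, was called in the 2 Cpt2 KO livers only, at 10.4 and 10.5. Intervals without a call in Ppara-null livers have no fold there and did not enter the test.

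One H3K4me1 interval inside Hadhb was called in all 8 livers. Over the stretch of 30167796 to 30171519, at 30167733 to 30171555, H3K4me1 folds were 12.5 and 11.4 in the WT pair, 11.0 and 11.8 in the Cpt2 KO pair, 6.52 and 5.64 in the Ppara KO pair and 6.00 and 5.97 in the DKO pair. The Ppara groups were far apart without overlap, and the log2 difference of -0.96 ± 0.19 (SE) missed the threshold (limma adjusted p = 0.0562). Unlike in H3K27ac, the 2 Cpt2 KO livers overlapped the WT livers in H3K4me1. In contrast, H3K4me1 intervals at 30148278 to 30148812, in Hadha, and 30161465 to 30162778, in Hadhb, were called in every Ppara-intact and no Ppara-null liver, and 1 at 30171699 to 30172721 in the 2 Cpt2 KO livers only.

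**Figure D2:**
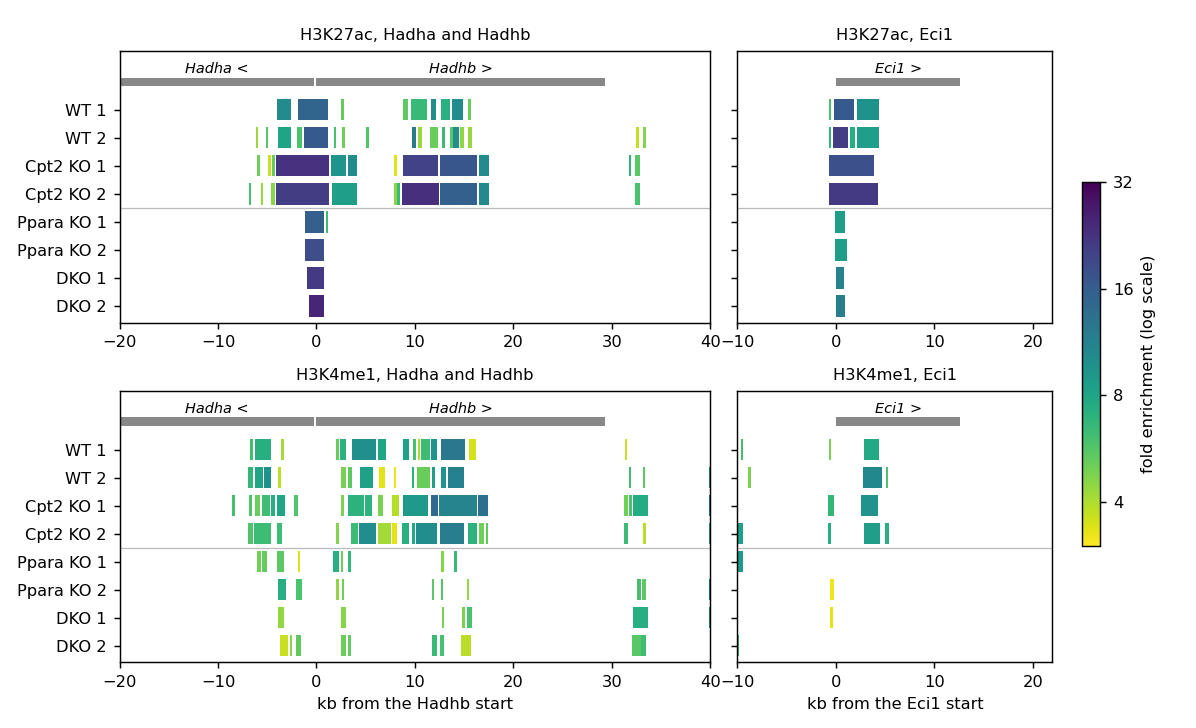
Called peaks as bars along the distance from a gene start (x axis, kb), 1 row per liver, for H3K27ac (above) and H3K4me1 (below) at Hadha and Hadhb (left) and Eci1 (right); colour gives the fold enrichment on a log scale, grey bars are gene bodies with the direction of transcription, and the line parts Ppara-intact from Ppara-null livers. H3K27ac in the Ppara-null livers lies, within these views, in a peak over the starts and, at Hadhb in Ppara KO replicate 1, a small peak beside it, while the Cpt2 KO livers hold the broadest peaks inside Hadhb.

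Hadh encodes the hydroxyacyl-CoA dehydrogenase for shorter chains (chromosome 3, 131233419 to 131272101). H3K27ac at its start, at 131270136 to 131272927, had folds of 10.6 and 12.9 in the WT pair, 8.43 and 9.74 in the Cpt2 KO pair, 4.42 and 9.86 in the Ppara KO pair and 6.52 and 5.94 in the DKO pair. Peaks lay over the start base itself in the WT pair alone. Ppara KO replicate 2 lay among the Ppara-intact livers and the other 3 Ppara-null livers below them, and the log2 difference of -0.71 ± 0.23 (SE) did not pass (limma adjusted p = 0.0768). Deep inside the gene, at 131245730 to 131249218, folds were 5.83 and 6.85 in WT and 13.3 and 12.6 in Cpt2 KO livers, and among Ppara-null livers only DKO replicate 1 had a call, at 3.81. H3K4me1 over that stretch, at 131245546 to 131252057, had folds of 7.27 and 10.9 in the WT pair, 9.61 and 13.9 in the Cpt2 KO pair, 5.92 and 5.36 in the Ppara KO pair and 4.06 and 5.52 in the DKO pair. These groups did not overlap, and the log2 difference of -0.98 ± 0.22 (SE) missed the threshold (limma adjusted p = 0.0821). Another stretch, at 131263173 to 131265861, had H3K27ac folds of 8.18 to 13.3 with overlapping Ppara groups. The Hadh interval with the highest mean H3K4me1 fold lay over that stretch, at 131263030 to 131266618. Its folds were 7.86 to 12.2, and its Ppara groups overlapped.

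Acaa2 encodes the mitochondrial thiolase for medium and long chains (chromosome 18, 74779212 to 74806207), and at its main interval no difference passed. That H3K27ac interval, at 74775495 to 74782344 covering the lower end of Acaa2, had folds of 17.7 and 15.1 in the WT pair, 20.3 and 19.1 in the Cpt2 KO pair, 12.1 and 19.7 in the Ppara KO pair and 16.4 and 26.6 in the DKO pair. The groups overlapped and differed by -0.03 ± 0.18 on the log2 scale (SE; limma adjusted p = 0.944). Beyond the other end of the gene, H3K4me1 intervals at 74808841 to 74809780 and 74810311 to 74811017 were called in all 4 Ppara-intact livers, with folds of 4.75 to 8.47 and 6.00 to 11.0, and in no Ppara-null liver. The Acaa2 interval with the highest mean H3K4me1 fold, at 74782862 to 74784430, was called in all 8 livers. Its folds were 5.78 to 9.25, and its Ppara groups overlapped. Strand is not given in the table used for Acaa2 and Decr1, so their ends are named by coordinate.

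Decr1 and Eci1, which rearrange the double bonds of unsaturated chains, each held an H3K27ac interval that fell between Ppara-intact and Ppara-null livers. At Decr1 (dienoyl-CoA reductase, chromosome 4, 15917240 to 15945377) the interval at 15936372 to 15945945, covering the upper end of Decr1, had folds of 19.2 and 24.6 in the WT pair, 29.3 and 26.5 in the Cpt2 KO pair, 9.05 and 11.8 in the Ppara KO pair and 8.05 and 10.6 in the DKO pair. The lowest Ppara-intact liver was well above the highest Ppara-null liver. The log2 difference was -1.36 ± 0.15 (SE; adjusted p = 0.000391, limma), a ratio of 0.389, and all 15 alternatives passed (-1.42 to -1.30). A second interval inside Decr1, at 15923447 to 15928153, had folds of 7.67 to 16.3 with overlapping groups.

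Eci1 encodes the enoyl-CoA isomerase (chromosome 17, 24426683 to 24439316). Its single H3K27ac interval, at 24425968 to 24431103 over the start, had folds of 16.5 and 21.1 in the WT pair, 18.0 and 21.4 in the Cpt2 KO pair, 8.67 and 8.54 in the Ppara KO pair and 11.2 and 11.7 in the DKO pair. All Ppara-null livers were below all Ppara-intact livers, and the log2 difference was -0.98 ± 0.16 (SE; adjusted p = 0.00385, limma), a ratio of 0.507, passing under all 15 alternatives (-1.08 to -0.88). The peaks were also shorter without Ppara: 4.44 to 5.01 kb were covered in Ppara-intact and 0.884 to 1.15 kb in Ppara-null livers. Inside Eci1, H3K4me1 at 24429283 to 24431354 had calls in every Ppara-intact liver at folds of 7.67 to 10.6 and in no Ppara-null liver.

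Etfdh, which hands electrons from the acyl-CoA dehydrogenases to ubiquinone (chromosome 3, 79603788 to 79628767), had hardly any interval outside its start, which was not analysed here. Its H3K27ac interval was called in 1 library, WT replicate 2, at a fold of 6.00, and 2 H3K4me1 intervals in 1 library each.

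**Figure D3:**
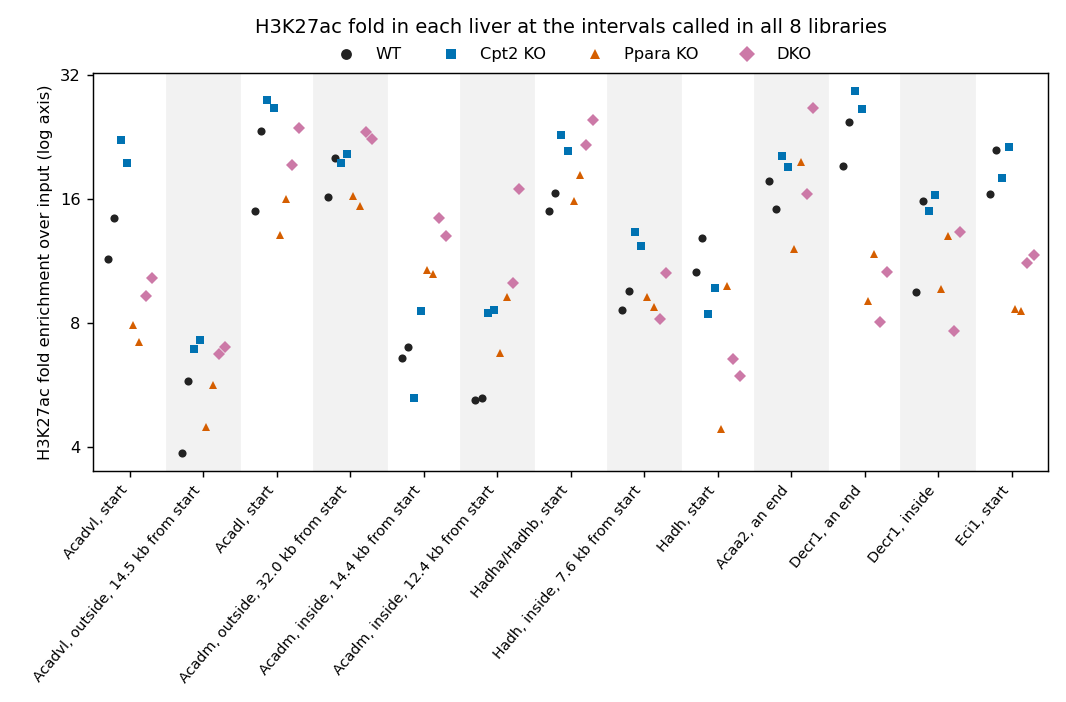
H3K27ac fold enrichment over input (y axis, log scale) in each of the 8 livers at the 13 intervals called in all of them (x axis, ordered by gene), coloured by genotype. The Ppara KO and DKO livers sit below the others at the Acadvl start, at the end of Decr1 and at the Eci1 start, and above them at 1 interval inside Acadm.

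Counted by library, calls at the 10 genes were fewer without Ppara. H3K27ac intervals called among the 53 numbered 27 and 31 in the WT pair, 32 and 37 in the Cpt2 KO pair, 19 and 24 in the Ppara KO pair and 16 and 18 in the DKO pair, while the share of all H3K27ac intervals called was 51.5% to 54.5% in Ppara-intact and 48.8% to 59.0% in Ppara-null libraries. H3K4me1 intervals called among the 89 numbered 52 to 61 in Ppara-intact and 33 to 38 in Ppara-null livers, against 46.9% to 51.0% and 44.1% to 50.7% of all H3K4me1 intervals. Called in all 4 Ppara-intact and no Ppara-null livers were 4 H3K27ac intervals (7.55%, against 0.725% of all 65776), 3 of them at Hadhb and 1 at Acadm, and 6 H3K4me1 intervals (6.74%, against 0.604% of all 103014). The reverse pattern was seen at none, against 0.632% for H3K27ac and 0.385% for H3K4me1. By Cpt2, no interval of the 10 genes was called in every liver of one state and none of the other, against 0.826% (intact only) and 1.95% (null only) for H3K27ac and 0.143% and 0.141% for H3K4me1.

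Each knockout was also set against WT. In Ppara KO minus WT livers, H3K27ac fell at 2 of 13 intervals, against 3.59% of all, and rose at none, against 2.83% (6.42% in either direction): the log2 differences were -1.06 ± 0.21 at Decr1 and -1.10 ± 0.23 at Eci1 (SE; limma adjusted p = 0.0165 and 0.019). Both calls were lost without WT replicate 2 (0.0965 and 0.105), Ppara KO replicate 1 (0.104 and 0.0776) or Ppara KO replicate 2 (0.0613 and 0.0975), the values being limma adjusted p for Decr1 and Eci1. In DKO minus WT livers, which share the WT libraries, 3 of 13 fell, against 11.5%, and 1 rose, against 8.62% (20.2% in either direction). Decr1 fell by 1.53 ± 0.21 (limma adjusted p = 0.0013), Eci1 by 1.00 ± 0.23 (limma adjusted p = 0.0102) and the Hadh start by 1.21 ± 0.33 (limma adjusted p = 0.0209), and the Acadm interval 12.4 kb from the start rose by 1.02 ± 0.28 (limma adjusted p = 0.0221). Without WT replicate 2 or without DKO replicate 2 only the Decr1 call remained, and without WT replicate 1 the Hadh call was lost (limma adjusted p = 0.0602). Without centring the Eci1 call of DKO minus WT was lost (-0.71; limma adjusted p = 0.0701), and with smallest peak width as covariate 0 of the calls of either contrast remained.

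No H3K27ac interval of the 13 passed the threshold by the state of Cpt2. With 13 intervals, 0 calls does not set these genes apart from the share over all intervals. Intervals without a call in Ppara-null livers did not enter, among them those inside Hadhb with higher folds in Cpt2 KO than in WT livers. Between Cpt2-null and Cpt2-intact livers limma called 0 of 13, with 1 at an unadjusted p under 0.05, against 12.3% of all intervals, and the median log2 difference was 0.07. Cpt2 KO minus WT also gave 0 of 13, with 0 at an unadjusted p under 0.05, against 13.5% (5.82% higher and 7.69% lower). The largest differences of that contrast were 0.48 in the Acadm interval 12.4 kb from the start and -0.59 at the Hadh start (limma adjusted p = 0.259 and 0.237). Before centring, folds of all intervals were higher in Cpt2-null livers by a median of 0.25 (log2), and the smallest peak width was 217 to 223 bases in Cpt2-null and 198 to 210 bases in Cpt2-intact H3K27ac libraries. Without centring 2 of the 13 passed by Cpt2, and with the smallest width as covariate 0 of the 13 and 0 of all 18281 did. The share of all intervals that passed without centring is not given here. The interaction, the Cpt2 effect without Ppara minus that with Ppara, passed at 0 of 13 by limma (0 at an unadjusted p under 0.05), against 0.00547%. At so low a share over all intervals, 0 of 13 shows nothing particular to these genes. Intervals called in Ppara-intact livers only could not enter it.

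H3K4me1 passed nowhere: limma called 0 of 18 intervals of the 10 genes between Ppara-null and Ppara-intact livers, with 4 at an unadjusted p under 0.05, against 0.128% of 19526 (0.0461% higher and 0.0819% lower). The 4 lay in Hadhb (1), in Hadh (2) and beyond the Acadm start (1), with log2 differences of -0.98 to -0.57. By Cpt2, 0 of 18 were called and 1 had an unadjusted p under 0.05 (limma), against 0% of all. DKO minus WT gave 0 of 18 by limma, with 4 at an unadjusted p under 0.05, against 0.0973% higher, 0.0358% lower and 0.133% in either direction. Without overlap between the Ppara groups, 2 of the 18 were lower, in Hadh and Hadhb (background 3.13%), and 0 higher (2.61%). The intervals with the highest mean H3K4me1 fold at Acadm (153929908 to 153930584), Decr1 (15924157 to 15925978) and Hadha (30151239 to 30152361) had overlapping Ppara groups. Their folds were 7.03 to 11.5, 5.67 to 14.3 and 3.67 to 7.98. The groups also overlapped at those of Acadvl, Hadh and Acaa2 given above. No H3K4me1 peak of any library lay over the start of Acadvl, Acadl, Hadha, Hadhb, Hadh or Eci1, whereas H3K27ac peaks lay over the starts of Acadl, Hadha, Hadhb and Eci1 in all 8 libraries, of Acadvl in 6 (neither Ppara KO liver) and of Hadh in 2 (the WT livers).

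**Figure D4:**
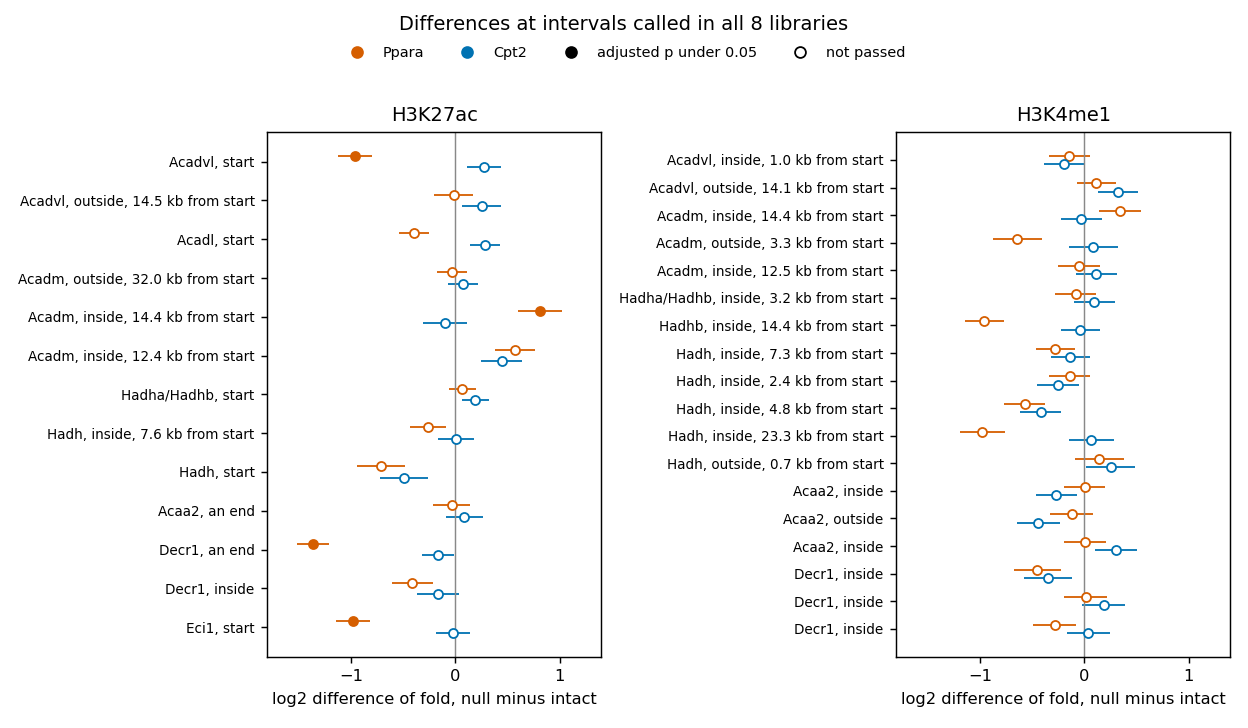
Log2 difference of fold (x axis; point with SE bar) at each interval of the 10 genes called in all 8 libraries (y axis), for loss of Ppara (orange) and of Cpt2 (blue), H3K27ac left and H3K4me1 right; filled points passed the adjusted threshold of 0.05. The 4 filled points are all H3K27ac and all for Ppara: Decr1, Eci1 and Acadvl below 0 and 1 interval inside Acadm above it.

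H3K9ac, positions only and without replicates, was read in the WT and the Cpt2 KO liver. Of the 61 intervals, 33 were called in both (54.1%, against 55.2% of all), 9 in WT only (14.8%, against 20.8%) and 19 in Cpt2 KO only (31.1%, against 23.9%). The window of Hadhb, which reaches into Hadha, held 10 intervals called in Cpt2 KO only and none in WT only, and the bases covered there were 5.26 kb in WT and 9.21 kb in Cpt2 KO. Inside Acadm 4 intervals were called in Cpt2 KO only, around the stretch where H3K27ac was called in every genotype but WT. Acaa2 went the other way, with 5 intervals inside the gene called in WT only and 10.9 kb covered in WT against 8.59 kb in Cpt2 KO. With 1 library per genotype these are differences between 2 livers, and over the genome the covered lengths were 37.5 and 37.4 Mb.

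The marks coincided at these genes. All 53 H3K27ac intervals overlapped an H3K4me1 consensus interval, against 75.1% of all H3K27ac intervals, and 34 of the 53 (64.2%) overlapped an H3K9ac interval, against 39.6%. In the other direction 52 of 89 H3K4me1 intervals (58.4%) overlapped H3K27ac, against 51.8%.

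Related pathways were read from the same fit. Between Ppara-null and Ppara-intact livers, H3K27ac fell at 8 and rose at 0 of 32 tested intervals of 20 other mitochondrial oxidation genes (4.15% and 3.19% of all intervals), with the lowest adjusted p at Acads, the short-chain dehydrogenase (-1.31 ± 0.16, SE), and Eci2 (-1.15 ± 0.16, SE). It fell at 3 and rose at 0 of 19 in the carnitine shuttle, led by the carrier Slc25a20 (-1.37 ± 0.19, SE) and Cpt2 itself (-0.81 ± 0.17, SE). In peroxisomal oxidation 7 of 29 fell and 1 rose, with Hsd17b4 at -1.52 ± 0.14 (SE) and the thiolase Acaa1b at -2.02 ± 0.19 (SE), and in ketone body synthesis 0 of 9 moved by limma (3 at an unadjusted p under 0.05). Loss of Cpt2 gave 2 higher and 0 lower of the 32 other mitochondrial intervals, at Acot2 (0.69 ± 0.15, SE; limma adjusted p = 0.0149) and at another interval of Eci2, chromosome 13, 35025737 onwards (0.57 ± 0.17, SE; limma adjusted p = 0.047), against 4.9% and 7.38% of all intervals. In peroxisomal oxidation it gave 0 higher and 3 lower of 29, with Scp2 at -0.87 ± 0.20 and -0.61 ± 0.19 (SE; limma adjusted p = 0.0185 and 0.0462), and in the carnitine shuttle and ketone body synthesis limma called 0 of 19 (5 at an unadjusted p under 0.05) and 0 of 9 (2). At the first Scp2 interval folds were 15.3 and 14.3 in WT and 7.09 and 7.93 in Cpt2 KO livers. Ppara KO livers had 9.12 and 7.52 there and DKO livers 7.96 and 6.31. At the second, WT livers had 10.25 and 10.1 and Cpt2 KO livers 5.6 and 5.8. Ppara KO livers had 10.25 and 11.0 there and DKO livers 13.0 and 10.6. As deposited, folds at the second thus fell with Cpt2 loss only in Ppara-intact livers.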

How the data were processed

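H3K27ac and H3K4me1 were measured in 8 livers each and H3K9ac in 2; pooled inputs were not analysed here. BWA, MACS2 2.1.0 and mm10 are named in the submitters' processing notes. Deposited by the authors for each H3K27ac and H3K4me1 library were peak lists with a fold over input (a linear ratio), a −log10 q value and positions in bases. For each mark, the authors also deposited consensus intervals as positions, with no per-library value; the first block of each such file was used.

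Each interval took the highest fold of the peaks overlapping it by 1 base or more. The log2 folds were centred on each library's median, and limma 3.58.1 (R 4.3.3; trended empirical Bayes) was fitted to 4 genotype means over all intervals called in all 8 libraries, with Benjamini-Hochberg adjustment over all of them and a threshold of 0.05, for 6 contrasts. Called folds are bounded below by the peak caller. The test was also run on simulated data with independent noise and changes by Ppara only. Its outcome is not given here, and it covers neither the other contrasts nor that lower bound. Bases under peaks are merged peak lengths in the gene body and 10 kb on either side; this measure was added after seeing the data and has no test. Named by rule were, per gene and mark, the interval with the highest mean fold, that at the start and every interval past the threshold, and in the other lists at most the 2 with the lowest adjusted p in each direction. Intervals without a call in some livers, and other tested ones, were chosen after their values were seen.

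Alternatives were no centring, quantile normalization, filling of uncalled libraries, a −log10 q of at least 10, an overlap of at least 50%, smallest peak width as covariate, a replicate block and leaving out each library. Replicate numbers did not pair the samples alike across genotypes (correlations of -0.065 to 0.17 for H3K27ac and -0.49 to 0.10 for H3K4me1). The -0.49 is that of Cpt2 KO with Ppara KO. In H3K4me1 the smallest peak width was 199 bases in both WT livers and 210 and 221 in the DKO livers. It was 211 and 196 bases in the Cpt2 KO pair and 200 and 216 in the Ppara KO pair. Anything that goes with this width cannot be told apart from DKO minus WT in H3K4me1. The p-values measure the spread between livers of a genotype, with 2 per genotype. The members, lists and tests were chosen with earlier results of these data known. Peaks at the starts of Acadm and Etfdh are not reported here.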

Additional observations from a re-analysis of the deposited data

How the results depend on the processing

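The Ppara-null decreases at Decr1, Eci1 and the Acadvl start passed under every alternative run, and none of the 10 differences that passed in the report changed sign. Filling uncalled libraries with their lowest fold and testing more intervals gave more calls at the 10 genes: 17 for H3K27ac and 17 for H3K4me1 by Ppara, 4 and 4 by Cpt2, 4 and 3 for Cpt2 KO minus WT, 9 and 3 for Ppara KO minus WT, 16 and 11 for DKO minus WT, and 3 and 2 for the interaction. Such folds rest on an assumed floor. For this and the other settings of this section, the shares of all intervals that passed are not given. The counts are therefore no result particular to the 10 genes. Without centring, 2 H3K27ac intervals passed by Cpt2, and 3 of the 4 DKO minus WT calls were shared. With smallest peak width as covariate, H3K27ac calls were 0 for Ppara KO minus WT and 0 for DKO minus WT, and the Acadm interval lost its call by Ppara (limma adjusted p = 0.0636). A −log10 q of at least 10 gave 1 H3K4me1 call by Ppara.

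Leaving out each library in turn gave 3 to 4 H3K27ac calls by Ppara, 0 to 0 by Cpt2, 0 to 2 for Ppara KO minus WT (0 without WT replicate 2, Ppara KO replicate 1 or Ppara KO replicate 2) and 1 to 4 for DKO minus WT (1 without WT replicate 2 or DKO replicate 2). For H3K4me1 it gave 0 to 2 by Ppara (2 without Cpt2 KO replicate 1) and 0 to 2 for DKO minus WT (2 without Cpt2 KO replicate 1 or 2). Intervals called only in Ppara-intact livers numbered 4 to 6 (H3K27ac) and 6 to 8 (H3K4me1), only in Cpt2-intact livers 0 to 1 for each mark, and only in Cpt2-null livers 0 to 1 for H3K4me1. Bases under peaks at the 10 genes differed by Ppara by -31.8 to -27.0 kb (H3K27ac; -29.6 kb with all libraries) and -27.8 to -24.2 kb (H3K4me1; -26.3 kb), a setting added after seeing the data. With the replicate block, H3K27ac calls were 4 by Ppara, 0 by Cpt2, 0 for Cpt2 KO minus WT, 2 for Ppara KO minus WT, 5 for DKO minus WT and 0 for the interaction, and H3K4me1 calls were 0 throughout. The cause of these changes was not tested. Read depth is unknown, so an interval without a call may lie just under the caller's threshold.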
